A study of Saccharomyces cerevisiae with 20 samples.

Results

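The 10 genes described here are members of the general amino acid control pathway of budding yeast and of the histidine pathway it governs. They were taken by name from the 7126 gene rows of each count table: *GCN4* with *GCN2*, *GCN1* and *GCN20* as regulators, and *HIS1*, *HIS2*, *HIS4*, *HIS5*, *HIS6* and *HIS7* as histidine biosynthesis genes. Polyadenylated RNA was sequenced from 4 double mutants (*elp3 deg1* and *urm1 deg1*, then *elp3 tcd1* together with *urm1 tcd1*) and WT, with 4 libraries per label. All strains, WT included, had the BY4741 background and carried *lys2* as well, so the full labels are *elp3 deg1 lys2*, *urm1 deg1 lys2*, *elp3 tcd1 lys2*, *urm1 tcd1 lys2* and *lys2*. They were grown in minimal medium, for which the labels name lysine as the supplement, and were collected after 10 cell divisions at an OD600 of 1.0. The study asked whether strains that lack different pairs of tRNA modifications share a transcriptional response.

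BY4741 lacks *HIS3*, *LEU2*, *MET15* and *URA3* function, so its own histidine pathway is interrupted at the *HIS3* step. The strain list of the study gives its *elp3 deg1* strain the marker *SpHIS5* in place of *DEG1*, a fission yeast gene that can stand in for *HIS3*, and gives KanMX and loxP alleles to the other double mutants. The *lys2* derivatives that were sequenced are not described there, and whether they kept that marker was not tested. In *elp3 deg1* any effect of such a marker and of the double deletion cannot be told apart. The labels do not say whether replicates were separate cultures, so p-values measure the spread between these libraries, which may be technical.

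Gcn4 is the transcription factor that switches on amino acid biosynthesis genes when amino acids run short. Its amount is set mainly by translation: the kinase Gcn2 senses uncharged tRNA with the help of Gcn1 and Gcn20 and phosphorylates the initiation factor eIF2, and short upstream reading frames in the *GCN4* leader then let ribosomes reach the coding sequence. Elp3 and Urm1 are needed for the wobble uridine modifications of tRNAs that read codons such as AAA and CAA, Deg1 makes pseudouridine in the anticodon arm, and Tcd1 makes the cyclic form of a modified adenosine next to the anticodon. The counts measure mRNA over coding sequences and say nothing of how much Gcn4 protein was made.

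The hexamer TGACTC, or GAGTCA on the other strand, is the core of the site that Gcn4 binds, and the factor Bas1 binds the same core. It was searched on both strands in the 500 bases before each start codon, in the R64 reference sequence of RefSeq. All 10 members have the same start and end in that reference as in the count tables. The core was present before 5 of the 6 histidine genes, all but *HIS2*, and before none of the 4 regulators. Of 6000 genes with a full window, 759 (12.7%) had it. At least 2 sites stood before *HIS1*, *HIS4*, *HIS5* and *HIS7*, which is 4 of the 6 histidine genes, against 86 of the 6000 genes (1.43%). A match is a run of letters and not a measured binding event. These windows of 30 bases show 1 stretch for each of the 5 genes, since their mRNA levels are the ones compared below, each on the strand of its gene with the core in capitals.
*HIS1*, chrV:266050-266079, core 282 bases before the start codon: ttgataacagcgTGACTCttcccggaaatt
*HIS4*, chrIII:68571-68600, first core 255 bases before the start codon: aggcagtcgaacTGACTCtaatagTGACTC
*HIS5*, chrIX:142714-142743, core 202 bases before the start codon: tcttggatctgtTGACTCacttcaattgat
*HIS6*, chrIX:314897-314926, core 94 bases before the start codon: gtctagtgtgcaGAGTCAtacggaataatt
*HIS7*, chrII:716592-716621, core 144 bases before the start codon: ttcatgagaaaaGAGTCAgacatcgaaaca

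The *HIS4* window holds a pair of cores in the same direction, and *HIS4* and *HIS5* each have 3 in all. *HIS6* has a single core, the one nearest to its start codon among the 11 found.

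Each library held 3273876 to 3926511 counted reads, and the members had 140 to 13012 reads per library, all far over the floor of 3 counts, which was 0.764 to 0.916 CPM. CPM are counts per 1e6 counts of a library, here after scaling by trimmed mean of M values (TMM). The TMM factors were 0.853 to 0.877 in *urm1 tcd1* replicates 1 to 3 and 0.941 to 0.953 in *elp3 deg1*, against 1.04 to 1.06 in WT. Small differences between these groups therefore depend on the scaling. *ELP3*, *URM1* and *DEG1* had 0 to 7 reads in each library labelled with their deletion, replicate 4 of the *tcd1* labels apart. *TCD1* had 0 to 2 reads in *urm1 tcd1* replicates 1 to 3, but 173, 147 and 185 reads in *elp3 tcd1* replicates 1 to 3, so these 3 libraries retained *TCD1* mRNA at 43.6 ± 2.74 CPM (SD, n = 3), against 109.6 ± 2.64 CPM in WT (SD, n = 4). The group is called *elp3 tcd1* by its label, although its *TCD1* reads are not those of a full deletion. In the library labelled *elp3 tcd1* replicate 4, *ELP3* had 345 reads and *URM1* had 0, and in that labelled *urm1 tcd1* replicate 4, *ELP3* had 5 reads and *URM1* had 174. Both go against their labels and were left out, which leaves 18 libraries, with 3 each for *elp3 tcd1* and *urm1 tcd1*. Genes of chromosome XI stood 1.00 to 1.01 higher on the log2 scale in *urm1 tcd1* replicates 1 to 3 than in WT (medians per library), against -0.01 to 0.11 in the other 15 libraries. No member lies on that chromosome, and the chromosomes of the members stayed between -0.10 and 0.13 in all 18 libraries. Effects of the chromosome XI shift on genes elsewhere and effects of the *urm1 tcd1* deletions cannot be told apart.

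The levels of the members differed widely per length of coding sequence. In WT, *GCN4* had the highest of the 10, 1823 CPM per kilobase, followed by *HIS1* with 1370.0, *HIS4* with 1145, *HIS5* with 689 and *HIS7* with 539. *HIS2* had 174 CPM per kilobase, *GCN20* had 134, *HIS6* had 88.6, *GCN1* had 36.5 and *GCN2* had 22.1. The spread between libraries of a group was small, with a median coefficient of variation of 3.52% over the 50 combinations of member and group (0.717% to 12.2%). RNA was taken from whole cultures, so a change in every cell and a change in a share of the cells cannot be told apart.

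*GCN4* (YEL009C, chrV:138918-139763), the transcription factor, was higher in *urm1 tcd1* and *elp3 deg1* and lower in *urm1 deg1* than in WT. Its level was 1891, 1836, 1892 and 1937 CPM in the *elp3 deg1* libraries, against 1561, 1557, 1509 and 1542 CPM in WT. In *urm1 deg1* it was 1311, 1302, 1195 and 1325 CPM, below every WT library. In *elp3 tcd1* it was 1545, 1461 and 1493 CPM, which overlaps WT. The 3 *urm1 tcd1* libraries had 2479, 2543 and 2462 CPM and stood above all others. The log2 fold changes against WT were 0.28 ± 0.03 (SE) in *elp3 deg1* (edgeR's quasi-likelihood test, Benjamini-Hochberg adjusted p = 8.78e-11), -0.29 ± 0.03 in *urm1 deg1* (adjusted p = 3.95e-12) and 0.70 ± 0.03 in *urm1 tcd1* (adjusted p = 4.79e-22), which is 1.62 times the WT level. The value of -0.05 ± 0.03 in *elp3 tcd1* did not pass the threshold of 0.01 (adjusted p = 0.0741). From highest to lowest the groups ran *urm1 tcd1*, *elp3 deg1*, WT, *elp3 tcd1* and *urm1 deg1*, and WT and *elp3 tcd1* were the neighbours whose libraries overlapped.

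*GCN2* (YDR283C, chrIV:1025070-1030049), the eIF2 kinase, ran in another order. It had 92.8, 85.5, 84.1 and 84.2 CPM in *elp3 deg1*, against 110.6, 110.2, 108.3 and 110.2 CPM in WT, and it had 72.9, 79.9 and 92.6 CPM in *urm1 tcd1*. Both groups lay below every WT library, with log2 fold changes of -0.35 ± 0.06 in *elp3 deg1* (SE, adjusted p = 1.68e-06) and -0.42 ± 0.07 in *urm1 tcd1* (adjusted p = 2.13e-06). In *elp3 tcd1* the 102, 97.4 and 99.3 CPM also lay below WT, but the log2 fold change of -0.16 ± 0.06 was not called (adjusted p = 0.0146). In *urm1 deg1* it had 119, 122, 118 and 112 CPM, all above WT, and the value of 0.07 ± 0.05 was not called either (adjusted p = 0.217). *GCN2* thus had its lowest mean in *urm1 tcd1*, the group in which *GCN4* was highest. Its *urm1 tcd1* and *elp3 deg1* libraries overlapped, however, and these groups were not compared by a test.

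*GCN1* and *GCN20*, whose proteins act together on Gcn2, were lower than in WT in all 4 mutants. *GCN1* (YGL195W, chrVII:131525-139543) had 248, 244, 218 and 222 CPM in *elp3 deg1* and 202, 186 and 179 CPM in *elp3 tcd1*, against 283, 289, 300.2 and 298 CPM in WT. In *urm1 deg1* it had 248, 268, 241 and 239.7 CPM and in *urm1 tcd1* it had 236, 251 and 277 CPM. Its decrease was largest in *elp3 tcd1*, at -0.64 ± 0.04 on the log2 scale (adjusted p = 1.44e-19), and was -0.33 ± 0.04 in *elp3 deg1*, -0.26 ± 0.04 in *urm1 deg1* and -0.19 ± 0.05 in *urm1 tcd1* (adjusted p = 0.000613). Without *urm1 tcd1* replicate 1, the last value became -0.14 and was no longer called (adjusted p = 0.022).

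*GCN20* (YFR009W, chrVI:162488-164746) had 182, 175 and 187 CPM in *elp3 tcd1* and 215, 197 and 197 CPM in *urm1 tcd1*, against 299, 313, 306 and 296 CPM in WT. These are log2 fold changes of -0.76 ± 0.04 in *elp3 tcd1* (adjusted p = 3.59e-23) and -0.58 ± 0.05 in *urm1 tcd1* (adjusted p = 2.58e-13). The decreases in *elp3 deg1* (-0.29 ± 0.04) and *urm1 deg1* (-0.24 ± 0.04) were smaller, with libraries at 269.8, 238, 239 and 248 CPM and at 238, 265, 270.3 and 269.6 CPM, all below WT. *GCN20* shares 258 bases on the same strand with the open reading frame YFR009W-A, and how reads in that stretch were assigned is not given in the sources used here.

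**Figure D1:**
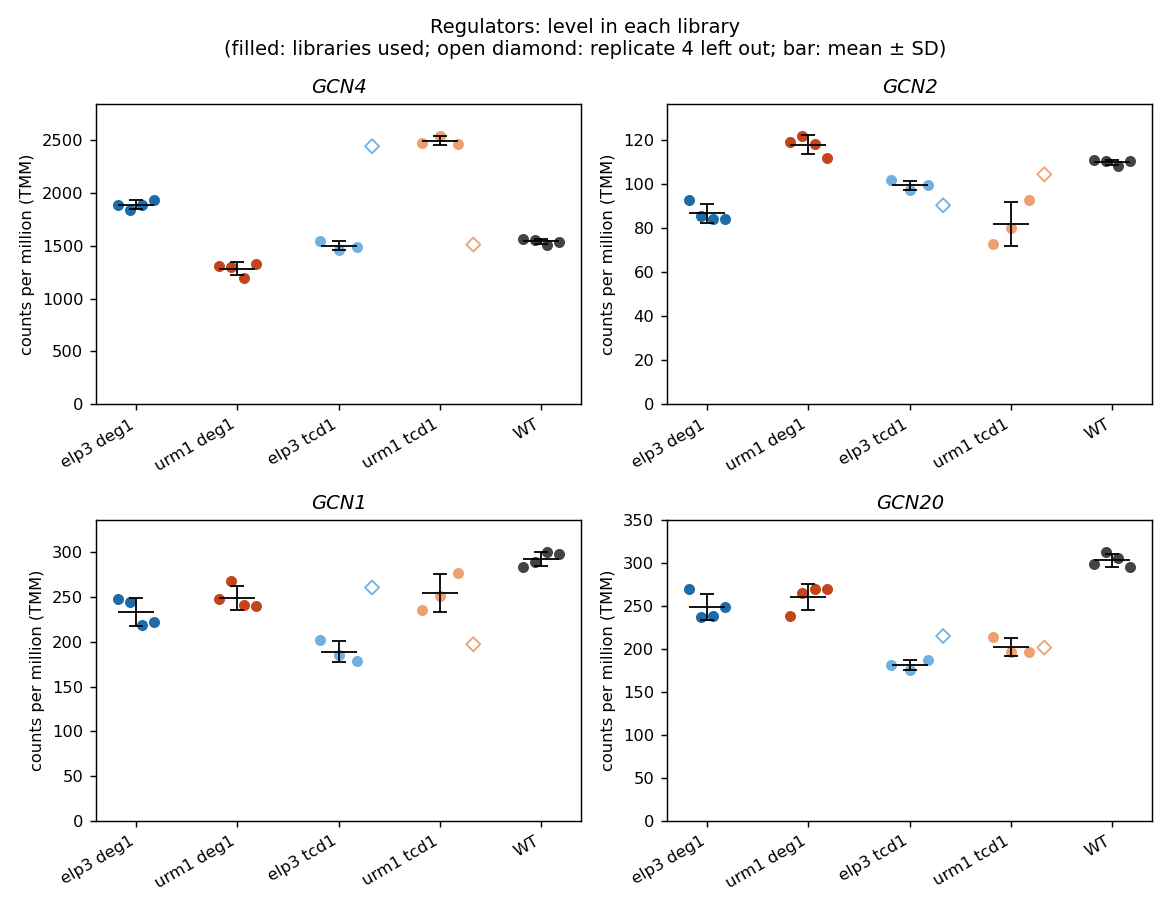
Level of the 4 regulators in each library, in TMM-scaled CPM on the y axis from 0, for the 4 mutants and WT on the x axis. Filled points are the libraries used, bars are means with SD (n = 4, or 3 for the *tcd1* mutants), and open diamonds are the left-out libraries labelled replicate 4. *GCN4* stands highest in *urm1 tcd1* (2462 to 2543), and *GCN1* and *GCN20* are below WT in every mutant library used.

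The first enzyme of the histidine pathway, *HIS1* (YER055C, chrV:264892-265785), which joins ATP to phosphoribosyl pyrophosphate, was higher in *elp3 deg1* and *urm1 tcd1* and lower in *urm1 deg1* than in WT. It had 1342, 1363, 1345 and 1369 CPM in *elp3 deg1* and 1456, 1441 and 1361 CPM in *urm1 tcd1*, against 1229.9, 1213, 1243 and 1213 CPM in WT. In *urm1 deg1* it had 726, 707, 655 and 676 CPM, far below every other group. The log2 fold change was -0.85 ± 0.03 in *urm1 deg1* (adjusted p = 3.95e-28), 0.14 ± 0.03 in *elp3 deg1* (adjusted p = 7.58e-05) and 0.22 ± 0.03 in *urm1 tcd1* (adjusted p = 1.69e-07). In *elp3 tcd1*, with 1155, 1167 and 1180.1 CPM, the small decrease of -0.08 ± 0.03 was called (adjusted p = 0.00705). That call did not hold when any single library of *elp3 tcd1* or WT was left out, with adjusted p between 0.011 and 0.018.

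*HIS4* (YCL030C, chrIII:65934-68333), an enzyme with several activities that include the last step to histidine, spanned the widest range of the 10 members, with its *urm1 tcd1* mean 3.38 times its *urm1 deg1* mean. It had 1257, 1287, 1305 and 1254 CPM in *urm1 deg1* and 1909.8, 1912 and 1976 CPM in *elp3 tcd1*, against 2659, 2850.0, 2759.8 and 2723 CPM in WT. The *urm1 tcd1* libraries had 4368, 4349.9 and 4214 CPM, all above WT, and the *elp3 deg1* libraries had 2495, 2439.5, 2367 and 2357 CPM, all below WT. No 2 groups overlapped. The log2 fold changes were -1.14 ± 0.03 in *urm1 deg1* (adjusted p = 3.58e-35), -0.52 ± 0.03 in *elp3 tcd1* (adjusted p = 1.13e-25), -0.20 ± 0.03 in *elp3 deg1* (adjusted p = 1.92e-07) and 0.66 ± 0.03 in *urm1 tcd1* (adjusted p = 1.38e-21).

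*HIS6* and *HIS7*, whose enzymes act after *HIS4*'s early steps and lead to the imidazole ring, were lower in all 4 mutants. *HIS6* (YIL020C, chrIX:314035-314820) encodes an isomerase and had the lowest read counts of the 10. It had 40.9, 40.5, 43.4 and 40.04 CPM in *elp3 deg1*, against 68.8, 74.1, 64.8 and 70.9 CPM in WT, which is -0.77 ± 0.07 on the log2 scale (adjusted p = 5.07e-11). The other mutants were at -0.64 ± 0.07 (*urm1 deg1*), -0.49 ± 0.08 (*elp3 tcd1*) and -0.38 ± 0.08 (*urm1 tcd1*, adjusted p = 0.000128), with all their libraries between 41.6 and 55.6 CPM. *HIS6* shares 17 bases on the same strand with YIL020C-A.

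*HIS7* (YBR248C, chrII:714807-716465), the synthase that closes the imidazole ring, had 482, 487, 489.9 and 485 CPM in *urm1 deg1*, against 905, 878, 867 and 925 CPM in WT. This was its lowest group, at -0.91 ± 0.03 on the log2 scale (adjusted p = 9.89e-29). It was -0.72 ± 0.03 in *elp3 tcd1*, -0.61 ± 0.03 in *elp3 deg1* and -0.38 ± 0.04 in *urm1 tcd1* (adjusted p = 1.29e-11), where the libraries had 674, 713 and 672 CPM. The *elp3 deg1* libraries had 568 to 601 CPM and the *elp3 tcd1* libraries 538 to 559.8 CPM. *HIS7* had the lowest mean of the 4 log2 fold changes among the 6 histidine genes, -0.65.

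*HIS5* and *HIS2* act late in the pathway, as the aminotransferase and the phosphatase that yields histidinol. *HIS5* (YIL116W, chrIX:142928-144085) had 407, 379.6, 388 and 379 CPM in *urm1 deg1* and 505, 525 and 525 CPM in *elp3 tcd1*, against 822, 804, 758 and 806 CPM in WT. It had 852, 867, 786 and 810.1 CPM in *elp3 deg1*, which overlaps WT, and 936, 930.0 and 850.3 CPM in *urm1 tcd1*. The log2 fold changes were -1.07 ± 0.03 in *urm1 deg1* (adjusted p = 4.28e-30), -0.64 ± 0.03 in *elp3 tcd1* (adjusted p = 1.28e-24) and 0.19 ± 0.04 in *urm1 tcd1* (adjusted p = 3.29e-05). In *elp3 deg1* the value of 0.05 ± 0.04 was not called (adjusted p = 0.236).

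*HIS2* (YFR025C, chrVI:203743-204750), the histidine gene without a core hexamer in its window, had 95.9, 93.4, 98.6 and 103 CPM in *urm1 deg1*, against 178, 172, 168 and 184 CPM in WT. In *urm1 tcd1* it had 208, 243 and 237 CPM, above WT, and in *elp3 tcd1* it had 143, 161 and 153 CPM, below WT. It fell in *urm1 deg1* (-0.87 ± 0.05 on the log2 scale, adjusted p = 3.46e-20) and *elp3 tcd1* (-0.22 ± 0.05, adjusted p = 9.81e-05) and rose in *urm1 tcd1* (0.39 ± 0.05, adjusted p = 4.83e-08). In *elp3 deg1* its 184, 178, 197 and 183 CPM overlapped WT, at 0.07 ± 0.05 (adjusted p = 0.195).

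**Figure D2:**
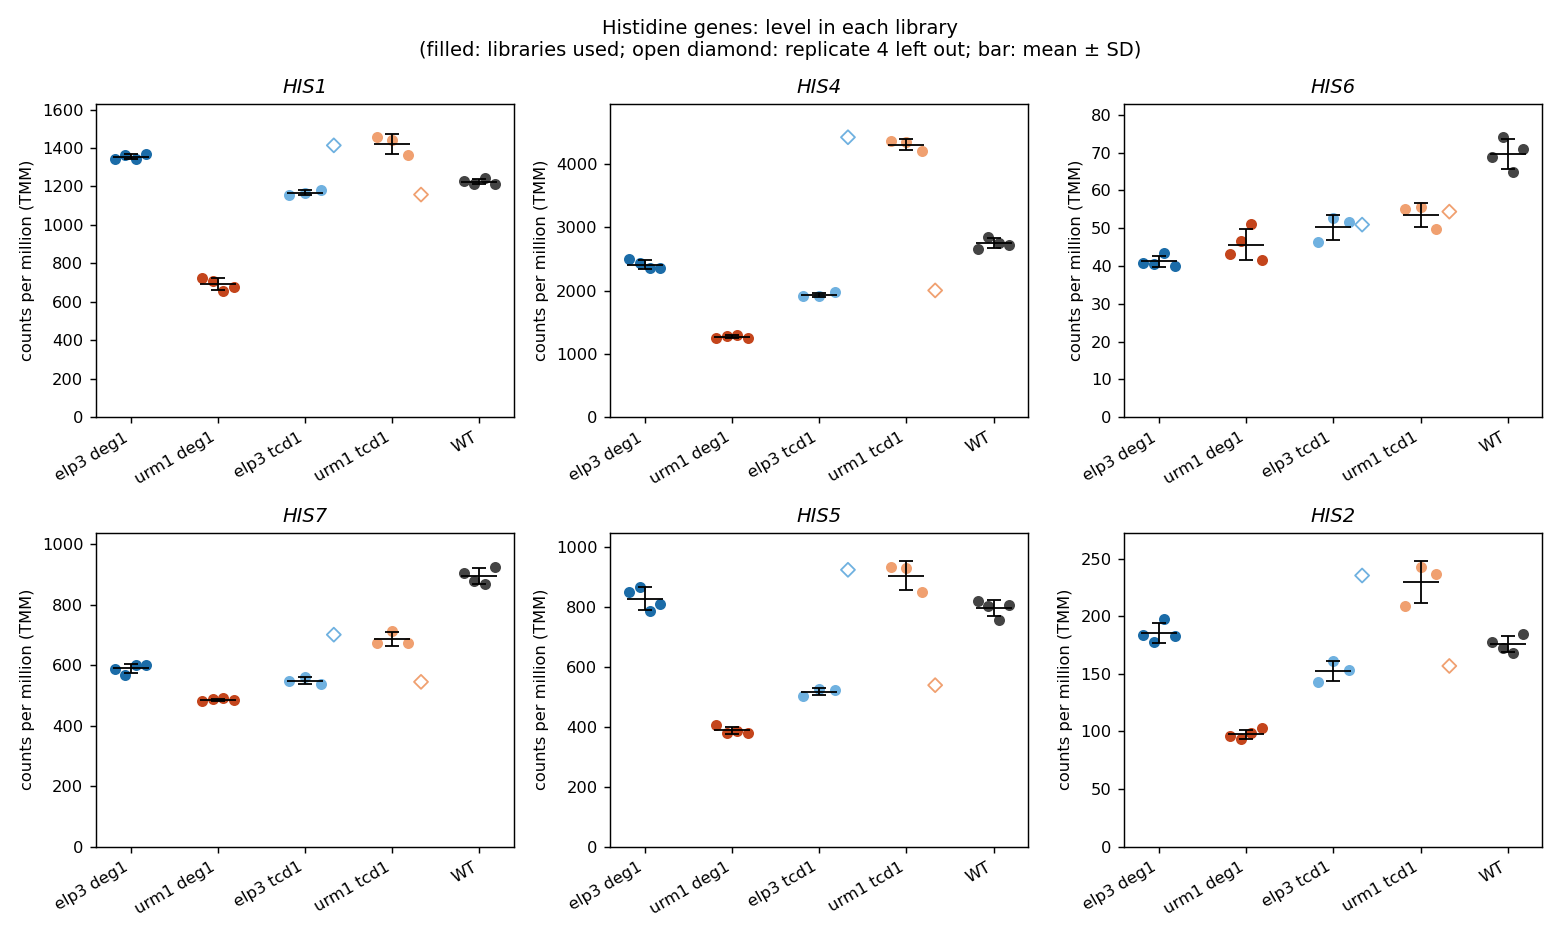
Level of the 6 histidine genes in each library, in TMM-scaled CPM on the y axis from 0, for the 4 mutants and WT on the x axis. Points, bars and open diamonds are as in the plot of the regulators. *HIS1*, *HIS4*, *HIS5* and *HIS2* are lowest in *urm1 deg1* and highest in *urm1 tcd1* (*HIS4*: 1254 to 1305 and 4214 to 4368), while *HIS6* and *HIS7* stand below WT in every mutant library used.

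The calls against WT were also counted over the members. In *elp3 deg1*, 2 of the 10 were called higher (33.1% of all 5849 tested genes were) and 6 lower (33.4% of all). In *urm1 deg1*, none of the 10 was called higher (33.2% of all) and 9 were called lower (33.1% of all). In DESeq2 the count of members higher in *urm1 deg1* was 0 as well, and at an unadjusted p under 0.05 it was 0. In *elp3 tcd1*, none was called higher (32.1% of all), also 0 in DESeq2 and at an unadjusted p under 0.05, and 8 were called lower (32.3% of all). In *urm1 tcd1*, 5 were called higher (32.8% of all) and 5 lower (32.2% of all). The median log2 fold change of all 10 stood at -0.24 for *elp3 deg1*, at -0.75 for *urm1 deg1*, at -0.51 for *elp3 tcd1* and at -0.0029 for *urm1 tcd1*, against medians between -0.02 and 0.01 over all tested genes. *GCN1*, *GCN20*, *HIS6* and *HIS7* were lower in all 4 mutants, as were 627 of the 5849 tested genes (10.7%), and no member was higher in all 4, which held for 583 of the tested genes (9.97%). The 4 comparisons share the WT libraries.

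**Figure D3:**
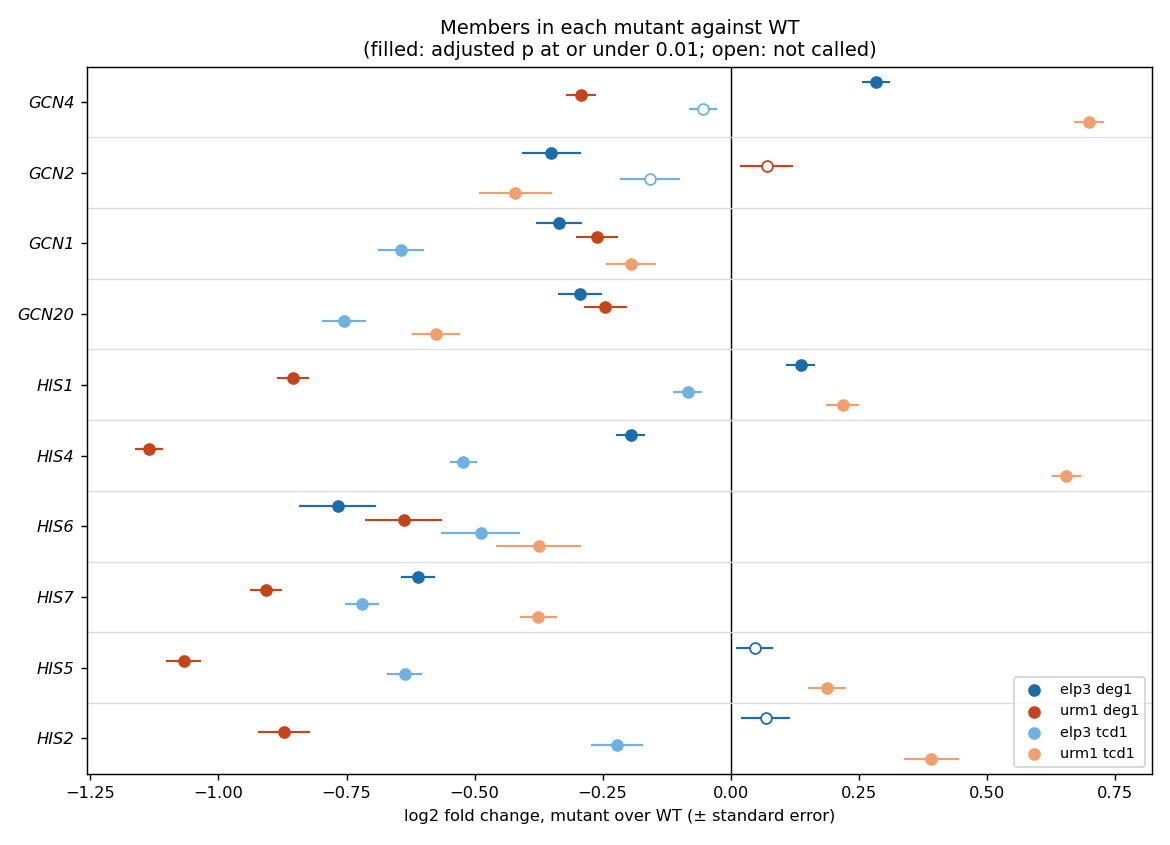
Log2 fold change of the 10 members in each mutant over WT on the x axis, with standard errors, from separate edgeR fits. Filled points have an adjusted p at or under 0.01 and open points do not. *GCN4* and *HIS1*, *HIS4*, *HIS5* and *HIS2* spread on both sides of 0 (*HIS4*: -1.14 to 0.66), whereas *GCN1*, *GCN20*, *HIS6* and *HIS7* lie below 0 in all 4 mutants.

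The mutants were next compared with each other, in a single fit of the 18 libraries that needs no WT value. Between *elp3 deg1* and *urm1 deg1*, 7 of the 10 members differed (62.4% of all tested genes did). *HIS5* was higher in *elp3 deg1* than in *urm1 deg1* by 1.08 ± 0.04 on the log2 scale (adjusted p = 8.59e-29), and *HIS1* (0.96), *HIS2* (0.91), *HIS4* (0.91), *GCN4* (0.55) and *HIS7* (0.27) were higher too, while *GCN2* was lower (-0.45). *GCN1* (-0.11 ± 0.05), *GCN20* (-0.08 ± 0.04) and *HIS6* (-0.16 ± 0.08) were not called, with overlapping libraries in each.

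Between *elp3 tcd1* and *urm1 tcd1*, 8 members differed (60% of all tested genes did), with the signs of *GCN4*, *GCN2*, *HIS1*, *HIS2*, *HIS4*, *HIS5* and *HIS7* turned round. *HIS4* was lower in *elp3 tcd1* than in *urm1 tcd1*, with a log2 difference of -1.16 ± 0.03 (adjusted p = 2.18e-32). *HIS5* (-0.81), *GCN4* (-0.74), *HIS2* (-0.60), *GCN1* (-0.44), *HIS7* (-0.33) and *HIS1* (-0.29) were lower as well, and *GCN2* was higher (0.28 ± 0.07, adjusted p = 0.00074), a call that was lost without *urm1 tcd1* replicate 1 (0.20, adjusted p = 0.024). *GCN20* (-0.17 ± 0.06, adjusted p = 0.0101) and *HIS6* (-0.10 ± 0.09) were not called, but *GCN20* passed in DESeq2 (adjusted p = 0.0066), with RLE factors (0.0042), with scaling without chromosome XI (0.0024), in a fit of these 2 groups alone (0.0078) and without *urm1 tcd1* replicate 3 (-0.19, adjusted p = 0.0097).

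The second deletion was compared within each first deletion. Between *elp3 deg1* and *elp3 tcd1*, 9 members differed (59.9% of all tested genes did), by moderate amounts. *HIS5* was higher in *elp3 deg1* by 0.67 ± 0.04 on the log2 scale (adjusted p = 1.30e-19), followed by *GCN20* (0.45), *GCN4* (0.33), *HIS4* (0.32), *GCN1* (0.30), *HIS2* (0.28) and *HIS1* (0.21), and *HIS6* (-0.29) and *GCN2* (-0.20) were lower. *HIS7* (0.10 ± 0.04) had an adjusted p of 0.0157 and was not called, but passed in DESeq2 (0.0049), with RLE factors (0.0062) and without *elp3 deg1* replicate 2 (0.12, adjusted p = 0.0059). The *GCN2* call was lost without *elp3 deg1* replicate 3 or 4 or *elp3 tcd1* replicate 1 or 3 (-0.20 to -0.19, adjusted p 0.012 to 0.022), and that of *HIS6* without *elp3 tcd1* replicate 2 or 3 (-0.26 and -0.27). DESeq2 did not call *GCN2* (adjusted p = 0.022) or *HIS6* (adjusted p = 0.015) in this contrast, and *GCN2* was not called with the replicate block (adjusted p = 0.011).

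Between *urm1 deg1* and *urm1 tcd1*, 8 members differed (68.3% of all tested genes did), and all histidine genes but *HIS6* were lower in *urm1 deg1*. *HIS4* was lower in *urm1 deg1*, with a log2 difference of -1.76 ± 0.03 (adjusted p = 2.66e-41), which is 0.296 times its *urm1 tcd1* level, and *HIS2* (-1.23), *HIS5* (-1.22), *HIS1* (-1.04), *GCN4* (-0.96) and *HIS7* (-0.50) were lower too. *GCN2* (0.52) and *GCN20* (0.37) were higher in *urm1 deg1*. *GCN1* (-0.03 ± 0.05) and *HIS6* (-0.23 ± 0.09) were not called, and *HIS6* passed with scaling without chromosome XI (-0.26, adjusted p = 0.0068) and without *urm1 deg1* replicate 3 (-0.29, adjusted p = 0.0047).

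Whether the difference between *deg1* and *tcd1* mutants depends on the first deletion was tested as an interaction, the log2 difference of *elp3 deg1* over *elp3 tcd1* minus that of *urm1 deg1* over *urm1 tcd1*. It was called for 8 of the 10 members (67.6% of all tested genes). The value was 2.07 ± 0.04 for *HIS4* (adjusted p = 1.19e-37), 1.89 ± 0.06 for *HIS5*, 1.51 ± 0.08 for *HIS2*, 1.29 ± 0.05 for *GCN4* (adjusted p = 3.87e-28), 1.25 ± 0.05 for *HIS1*, 0.60 ± 0.05 for *HIS7* and 0.33 ± 0.08 for *GCN1*. *GCN2* had the opposite sign, at -0.73 ± 0.09 (adjusted p = 1.36e-09). *GCN20* (0.09 ± 0.07, adjusted p = 0.287) and *HIS6* (-0.06 ± 0.12, adjusted p = 0.662) were not called. Over all tested genes the median was -0.02. The first deletion was not the only difference between these groups. All *urm1 tcd1* libraries used had the higher level of chromosome XI genes, *elp3 tcd1* retained *TCD1* mRNA, and *elp3 deg1* may carry *SpHIS5*. These differences and the first deletion cannot be told apart in the interaction.

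**Figure D4:**
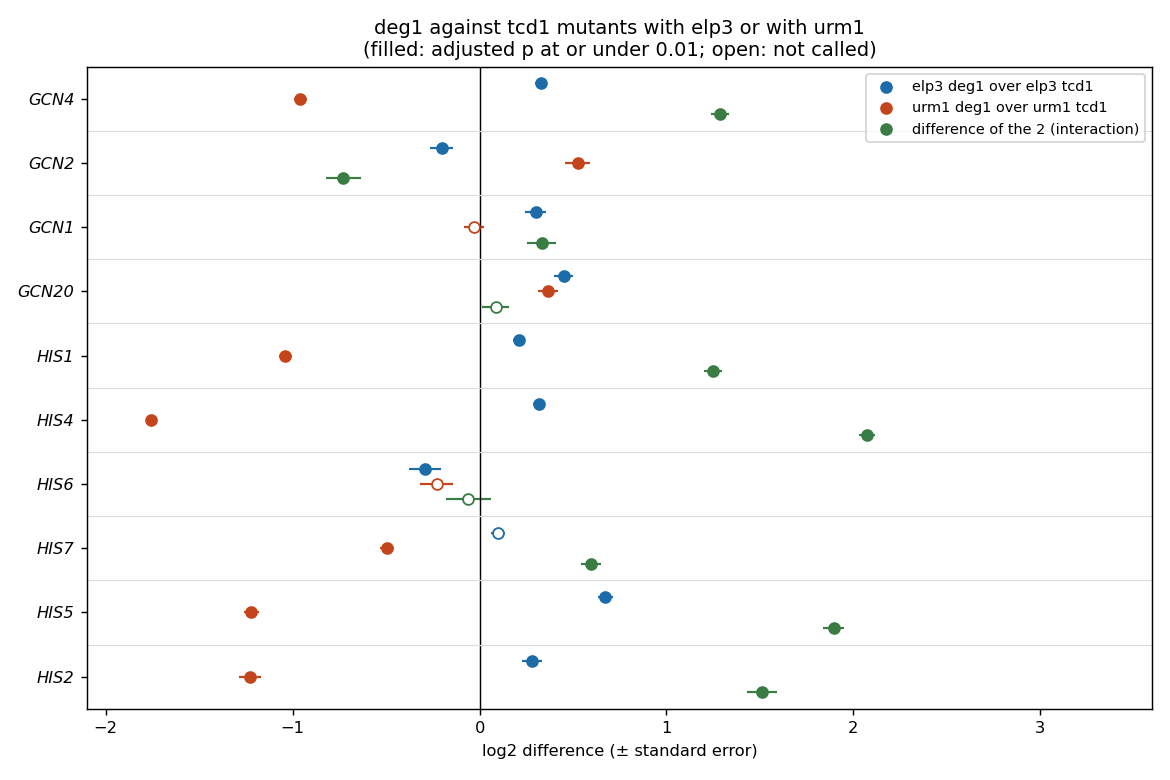
Log2 difference of *deg1* over *tcd1* mutants with *elp3*, the same with *urm1*, and the difference of both (interaction), on the x axis with standard errors for the 10 members. Filled points have an adjusted p at or under 0.01. For *HIS4* the *elp3* value is 0.32, the *urm1* value is -1.76 and the interaction is 2.07, while *GCN20* and *HIS6* have interactions of 0.09 and -0.06.

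Including the libraries labelled replicate 4 as labelled changed these results. In the library labelled *elp3 tcd1* replicate 4, *GCN4* had 2444 CPM and *HIS4* had 4427 CPM, against 2462 to 2543 CPM and 4214 to 4368 CPM in the *urm1 tcd1* libraries used. In that labelled *urm1 tcd1* replicate 4, *GCN4* had 1513 CPM and *HIS4* had 2005 CPM, against 1461 to 1545 CPM and 1909.8 to 1976 CPM in the *elp3 tcd1* libraries used. With both in, 4 in place of 8 members were called lower in *elp3 tcd1*, 0 in place of 5 higher and 3 in place of 5 lower in *urm1 tcd1*, 0 in place of 8 differed between these mutants, and 2 in place of 9 between *elp3 deg1* and *elp3 tcd1*. *HIS4* in *urm1 tcd1* then had a log2 fold change of 0.44 (adjusted p = 0.13) and *GCN4* had 0.54 (adjusted p = 0.02). The shares of all tested genes called in this setting are not given here. From these counts of members alone, a loss of calls common to all genes and a loss among the members cannot be told apart.

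The surroundings of the members in the pathway were read from 5 lists of genes with a role in it. Some of the listed genes lie on chromosome XI, whose genes stood about 1.00 higher in *urm1 tcd1*, and they are counted too. For them, that shift and a change of the gene itself cannot be told apart. The counts of called genes in these lists are set against the shares of all tested genes, of which 33.1%, 33.2%, 32.1% and 32.8% were higher and 33.4%, 33.1%, 32.3% and 32.2% lower, in the mutant order above. Of 40 Gcn4 targets in other amino acid pathways, 13 were higher and 19 lower in *elp3 deg1* (median log2 fold change -0.04), 3 were higher and 36 lower in *urm1 deg1* (median -1.23), 15 were higher and 23 lower in *elp3 tcd1* (median -0.20), and 26 were higher and 8 lower in *urm1 tcd1* (median 0.41). *GCN4* itself was at 0.28, -0.29, -0.05 and 0.70 in these mutants, in comparisons that share the same WT libraries. The 13 of 40 higher in *elp3 deg1* (33.1% of all) are near the share over all genes. *ILV5*, an enzyme of branched-chain amino acid synthesis, had the highest mean of the 4 log2 fold changes, with 1.86 in *elp3 deg1*, 0.77 in *urm1 deg1*, 1.57 in *elp3 tcd1* and 1.70 in *urm1 tcd1*. *ICY2* (YPL250C), named *ATG41* in the RefSeq reference, had the lowest, with -1.29, -2.15, -1.40 and -0.39 in the same mutants. The core hexamer was found before 31 of these 40 genes (77.5%).

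The interaction was called for 38 of the 40 targets, all of them positive (67.6% of all tested genes were called, in either direction), with a median of 1.48. Between *urm1 deg1* and *urm1 tcd1*, 39 of the 40 were lower in *urm1 deg1* and 1 was higher (median -1.45), where 68.3% of all tested genes differed in either direction. The same contrast gave a median of -1.13 for the 6 histidine genes. Over all tested genes the median was 0.02 in that contrast.

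Of the 10 subunits of eIF2 and eIF2B and modulators of Gcn2, 1 was higher and 6 lower in *elp3 deg1* (median -0.17), in *urm1 deg1* 1 and 7 (median -0.28), in *elp3 tcd1* 2 and 5 (median -0.12) and in *urm1 tcd1* 5 and 3 (median 0.12). Over all tested genes 32.1% to 33.2% were higher and 32.2% to 33.4% lower. *SUI2*, the eIF2 subunit that Gcn2 phosphorylates, had the lowest mean and was lower in all 4 mutants, with -0.72 for *elp3 deg1*, -0.65 for *urm1 deg1*, -0.67 for *elp3 tcd1* and -0.60 for *urm1 tcd1*. *GCN3*, the regulatory subunit of eIF2B, had the highest mean, with 0.24, -0.22, 0.29 and 1.54 in these mutants. *GCN3* lies on chromosome XI, whose genes stood about 1.00 higher in *urm1 tcd1*.

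Among 6 genes for the turnover of Gcn4 and its coactivators, 2 were higher and 2 lower in *elp3 deg1*, followed by 1 and 3 in *urm1 deg1*, 2 and 1 in *elp3 tcd1* and 4 and 2 in *urm1 tcd1*. The counts in *elp3 deg1* are at the shares over all tested genes (33.1% higher and 33.4% lower). *PHO85*, a kinase that marks Gcn4 for destruction, was higher in all 4 (0.90, 0.46, 0.31 and 0.19, in the mutant order above), and *MBF1*, a coactivator that bridges Gcn4 and the TATA-binding protein, was lower in all 4 (-0.65, -0.48, -0.51 and -0.74).

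Of 5 genes for histidine uptake, charging of its tRNA, the *HIS3* step and shared regulators, 5 were lower in *elp3 deg1*, followed by 4 in *urm1 deg1*, 5 in *elp3 tcd1* and 1 in *urm1 tcd1*, and 0, 1, 0 and 3 were higher in the same order. Over all tested genes, 33.4%, 33.1%, 32.3% and 32.2% were lower in these mutants. *HTS1*, the histidyl-tRNA synthetase, had the highest mean of this list (-0.31, -0.58, -0.28 and 0.54), and *HIP1*, the histidine permease, had the lowest (-0.22, -0.85, -0.49 and -0.07, the last not called). BY4741 is listed with a his3 deletion, but reads were counted on *HIS3* in all groups, at 343 ± 5.88 CPM in *elp3 deg1*, 182 ± 11.6 CPM in *urm1 deg1*, 401 ± 11.4 CPM in *elp3 tcd1* and 589 ± 47.2 CPM in *urm1 tcd1*, against 434 ± 29.0 CPM in WT (SD, n = 4, or 3 for the *tcd1* mutants). Which part of the gene they cover was not tested. *HIS3* was thus lowest in *urm1 deg1* and highest in *urm1 tcd1*, like *HIS4*, but stood lower in *elp3 deg1* than in *elp3 tcd1*, where *HIS4* had the opposite order.

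The 16 genes of phosphoribosyl pyrophosphate and purine synthesis, which supply the first histidine step or share its precursor, counted 2 higher and 11 lower in *elp3 deg1* (median -0.33), 6 and 8 in *urm1 deg1* (median -0.04), 2 and 12 in *elp3 tcd1* (median -0.66) and 4 and 10 in *urm1 tcd1* (median -0.28). The 6 of 16 higher in *urm1 deg1* are near the 33.2% of all tested genes, and 32.2% to 33.4% of all were lower in the 4 mutants. *ADE2*, an enzyme of purine synthesis, had the lowest mean, with -0.30 in *elp3 deg1*, 0.11 in *urm1 deg1*, -1.20 in *elp3 tcd1* and -1.38 in *urm1 tcd1*. *PRS5*, a phosphoribosyl pyrophosphate synthetase, had the highest (0.30, 0.05, 0.17 and 0.37, the second not called).

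**Figure D5:**
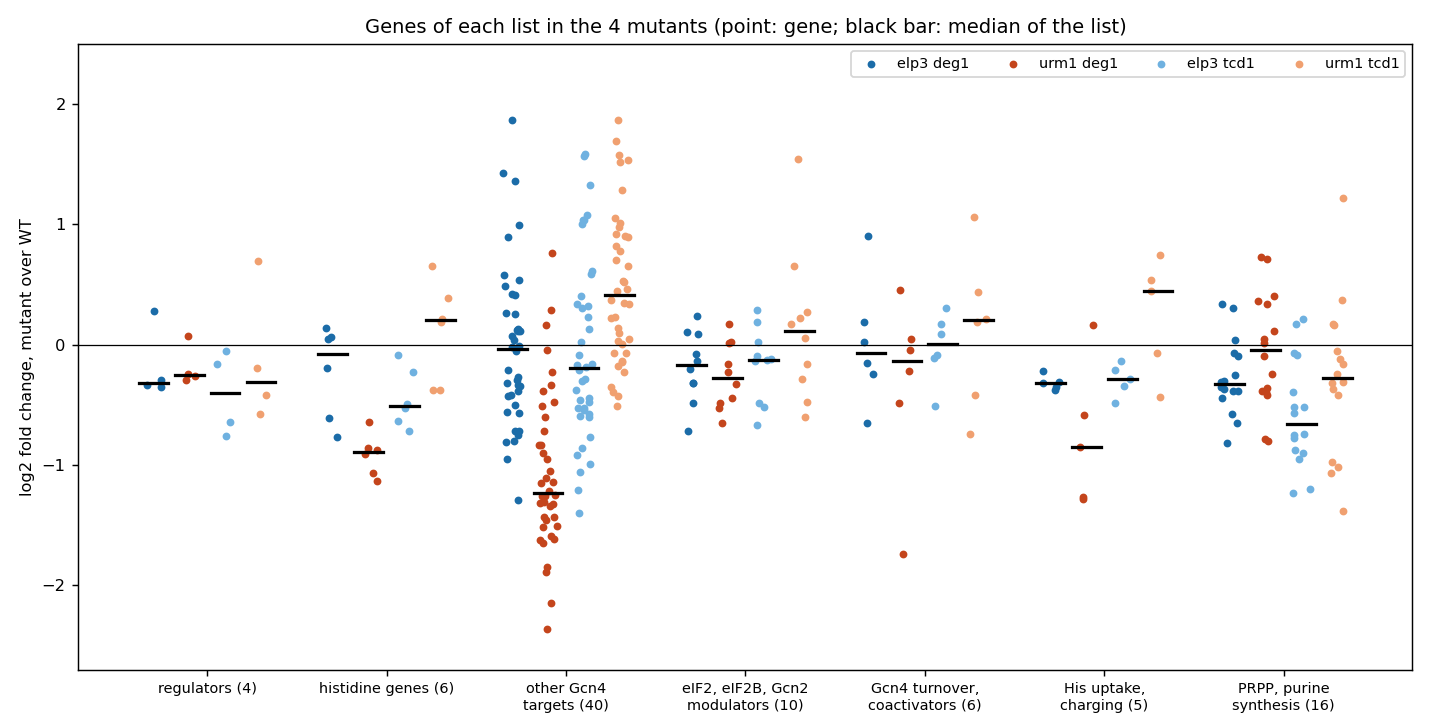
Log2 fold change over WT on the y axis for every gene of the 2 member groups and the 5 lists on the x axis, in the 4 mutants. Each point is a gene and each black bar the median of its list. The 40 other Gcn4 targets have medians of -0.04, -1.23, -0.20 and 0.41 in the mutants from left to right, and the 6 histidine genes have -0.07, -0.89, -0.51 and 0.20.

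The genes most like *GCN4* in their 4 log2 fold changes against WT, by the root mean square difference over the 4 mutants, were *TUL1* (0.07), *RPB10* (0.09) and *RPN13* (0.09). *TUL1*, a subunit of a membrane ubiquitin ligase, had 0.28 in *elp3 deg1*, -0.42 in *urm1 deg1*, -0.04 in *elp3 tcd1* and 0.65 in *urm1 tcd1*. Those most like *HIS4* were *RIB3* (0.04), *ARO8* (0.09) and *BAS1* (0.13). *RIB3*, an enzyme of riboflavin synthesis, had -0.17, -1.19, -0.52 and 0.60 in the same mutants, and *ARO8*, an aromatic aminotransferase, had -0.31, -1.13, -0.39 and 0.66. *BAS1*, the other factor that binds the core hexamer, lies on chromosome XI and *TUL1* does too.

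The coding sequences of the members differed in the codons that the modified tRNAs read. CAA made up 4.25% of the codons of *GCN20*, above 90.5% of 5673 genes of at least 100 codons, and 3.75% of those of *HIS4*, against a median of 2.54%. AAA made up 6.90% of the codons of *HIS6*, above 93.3% of these genes, against a median of 4.12%. *HIS1* had 1.68% CAA and *HIS2* had 2.09% AAA, both below the medians. The part of codon content in the mRNA differences was not tested.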

How the data were processed

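Polyadenylated RNA of 20 yeast libraries was measured, 4 for each of the double mutants and WT, grouped by the sample titles. The deposited files hold raw read counts per gene, which the authors made by aligning with STAR 2.5.1b to the R64 genome. The file headers name featureCounts 1.4.6-p2 in its reverse-stranded mode with release 84 of the Ensembl annotation, whereas the methods name htseq count with that version. Genes overlapping on opposite strands were therefore counted apart. Members were 10 rows matched by gene ID. The members, the lists and the tests were chosen with earlier results of these data known.

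In R 4.3.3, each mutant was compared with WT by edgeR 4.0.16 (TMM, quasi-likelihood test, replicates as samples), and mutants with each other and the interaction in 1 fit of 18 libraries, both over the 5849 of 6845 genes with a read that passed filterByExpr (minimum count 10). All 10 members passed. Calls needed an adjusted p (Benjamini-Hochberg, over all tested genes) of 0.01 or less. Standard errors came from the log2 fold change and its F statistic. DESeq2 1.42.0 was an alternative test, limma 3.58.1 was loaded with edgeR, and Python 3.11.15 with numpy 2.4.6, pandas 2.3.3 and matplotlib 3.10.9 was used for sequences and figures. The scripts were tested on simulated data. Alternatives were RLE or upper quartile factors, scaling without chromosome XI, no filter, another fit, a replicate block, other thresholds, replicate 4 of both *tcd1* labels included, and leaving out each replicate.

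The text names all members. From each list it names the genes with the highest and the lowest mean of the 4 log2 fold changes, and it would have named genes whose log2 fold change reached 1 in either direction in all 4 mutants, of which there were none. It also names the 3 genes most like *GCN4* and *HIS4*, and *HIS3*, *LYS2* and the deleted genes as strain checks. *LYS2*, named as a mutant gene in all labels, had 3.61 to 35.0 CPM in the 18 libraries. Libraries of a group differed by more than counting noise in all 24 pairs (chi-square per degree of freedom 1.14 to 2.51), and none was identical to another. Library totals, 3273876 to 3926511 counts, set the precision, and floors of 3 counts cover counting error only. The authors' tables of fold changes were not used. RefSeq protein and promoter tables were not used here.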

Additional observations from a re-analysis of the deposited data

Results flagged for a closer look

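Several values stood out when the libraries were compared. In 1 of 30 groups of 4 libraries tested, a library lay apart from the others: *GCN2* was at 92.8 CPM in *elp3 deg1* replicate 1, while the other 3 libraries of that group had 84.1 to 85.5 CPM. The gap was 0.834 of the whole range, just over the 95% critical value of Dixon's test for 4 values, and chance alone sets a library apart in about 1 of 20 such groups.

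The difference between *deg1* and *tcd1* mutants was not the same with *elp3* as with *urm1* for 8 members, by the edgeR interaction test. Such a call was common, as 67.6% of all tested genes had it. The groups also differed in more than the first deletion, as said above. The interaction was measured as a difference of log2 differences. On the log2 scale it was 2.07 for *HIS4*, 1.89 for *HIS5*, 1.51 for *HIS2*, 1.29 for *GCN4*, 1.25 for *HIS1*, 0.60 for *HIS7*, 0.33 for *GCN1* and -0.73 for *GCN2*.

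Of the 2 libraries left out because the counts of the deleted genes go against their labels, 1 held members above WT. In the library labelled *elp3 tcd1* replicate 4, *GCN4* had 2444 CPM, against at most 1561 CPM in WT, and *HIS4* had 4427 CPM, against at most 2850.0 CPM in WT. *HIS1* (1414 CPM), *HIS5* (925 CPM) and *HIS2* (235 CPM) were above the highest WT library as well. No member was above WT in the library labelled *urm1 tcd1* replicate 4. The library labelled *elp3 tcd1* replicate 4 had 0 *TCD1* reads, against 0 to 2 in the *urm1 tcd1* libraries used. Its chromosome XI genes stood 0.98 above WT on the log2 scale (median), against 1.00 to 1.01 in those libraries. The library labelled *urm1 tcd1* replicate 4 had 154 *TCD1* reads, against 147 to 185 in the *elp3 tcd1* libraries used, and a chromosome XI median of 0.02. Whether they were exchanged was not tested.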

How the results depend on the processing

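Over the members and comparisons, 1358 of 1420 values under the alternatives kept their side of the threshold, 50 lost the call, 11 gained it and 1 turned round. A change of sign was counted as a turn only where the main or the alternative value was called. Values not called in either setting were counted as kept whatever their sign. The value that turned round was *HIS4* in *elp3 deg1* against *elp3 tcd1*, at -0.09 with replicate 4 of both *tcd1* labels included as labelled. With these libraries in, 4 members were lower in *elp3 tcd1*, 0 higher and 3 lower in *urm1 tcd1*, 0 differed between *elp3 tcd1* and *urm1 tcd1* and 2 between *elp3 deg1* and *elp3 tcd1*. *GCN1* then had an interaction of 0.12 (adjusted p = 0.52), *HIS7* lost its call between *elp3 deg1* and *urm1 deg1* (0.012), and *HIS6* gained one between *urm1 deg1* and *urm1 tcd1* (0.0087). With a log2 fold change of 1 or more in either direction required, the counts fell to 0 higher and 0 lower in *elp3 deg1*, 2 lower in *urm1 deg1*, 0 lower in *elp3 tcd1*, and 0 higher and 0 lower in *urm1 tcd1*. Between mutants, 1 member then differed between *elp3 deg1* and *urm1 deg1*, 1 between *elp3 tcd1* and *urm1 tcd1*, 0 between *elp3 deg1* and *elp3 tcd1* and 4 between *urm1 deg1* and *urm1 tcd1*, and 5 had an interaction. These counts are lower by construction of the stricter threshold. The shares of all tested genes called with it, or with replicate 4 included, are not given here. The counts in both settings are therefore not results about the members alone.

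Leaving out each replicate in turn gave 7 members lower in *elp3 tcd1* each time, 4 to 5 lower in *urm1 tcd1*, 7 to 9 between *elp3 tcd1* and *urm1 tcd1*, 7 to 10 between *elp3 deg1* and *elp3 tcd1* and 8 to 9 between *urm1 deg1* and *urm1 tcd1*, and did not change the counts of 2 higher and 6 lower in *elp3 deg1*, 0 and 9 in *urm1 deg1*, 0 higher in *elp3 tcd1*, 5 higher in *urm1 tcd1*, 7 between *elp3 deg1* and *urm1 deg1*, and 8 with an interaction. *HIS1* in *elp3 tcd1* also lost its call with no filter (adjusted p = 0.019), in 1 fit of 18 libraries (0.039) and with upper quartile factors (0.80). Upper quartile factors moved the median of all genes from 0.03 to 0.15 between *elp3 tcd1* and *urm1 tcd1* and from -0.02 to -0.17 in the interaction, where *GCN1* was then not called (0.18, adjusted p = 0.028), and the cause was not tested. Same-numbered libraries deviated together no more than others (mean correlation 0.01 in 33 pairs, and -0.0029 in 96 other pairs). With the replicate block, 7 members were lower in *elp3 tcd1* and 8 differed between *elp3 deg1* and *elp3 tcd1*, and the other member counts were the same as without it. *HIS6*, the member with the fewest reads, had the largest standard error of the 10 in each comparison with WT (0.07 to 0.08).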
